A study of Mus musculus with 9 samples.

Results

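The Notch receptors Notch1, Notch2 and Notch3, the ligands Jag1, Jag2 and Dll1, and the Notch-linked transcriptional repressors Hes1, Hes6, Hey1 and Heyl were followed in sorted cells of murine pancreatic ductal adenocarcinoma (PDAC). The 10 genes were listed by name as members of the pathway, with earlier results of these data known, and make up 10 of the 47643 genes in the deposited count files. Of the 10, 9 reached 100 counts summed over all libraries and were tested among 14105 genes. Jag2 did not.

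GFP+Yap+ cells came from KPF mice in 6 libraries and Tm+Yap− cells from KPYYF mice in 3 libraries. KPF mice carry Pdx-Flp and R26 FSF-CreER/Dual with Trp53 frt/+, among other alleles, and KPYYF mice carry Yap flox/flox in addition. In both, Flp driven by the Pdx1 promoter removes a Trp53 allele and marks cells with EGFP. A tamoxifen (TAM) diet, begun once tumors could be felt, activates CreER, which exchanges EGFP for tdTomato (Tm) and in KPYYF cells deletes Yap. Yap status, genotype and reporter color therefore change together and cannot be told apart. By the study's text, mice of both groups had received TAM and the sorted cells came from relapse nodules. The labels do not give the ages of the mice. KPF libraries 4504h and 4504s share a mouse number, so the 6 KPF libraries come from 5 mice, and p values measure the spread between these libraries.

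Notch receptors are bound by Jagged or Delta ligands on a neighboring cell, after which ADAM proteases and γ-secretase release their intracellular domain. The released domain joins Rbpj and Mastermind proteins in the nucleus and turns on genes such as Hes1, Hey1 and Heyl, whose products repress transcription. In the pancreas, Notch signaling keeps progenitors undifferentiated, and in blood vessels Notch3, Notch4, Hey1 and Heyl are known from cells of the vessel wall. The libraries measured polyadenylated RNA at its 3′ end, so they give transcript levels and neither Notch protein nor its cleavage.

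Reads on genes ran from 8116539 to 9635514 per library. Yap1, the deleted gene, ran from 41.8 to 151 CPM, the read count normalized to library size, in KPF and from 0.712 to 7.12 CPM in KPYYF libraries. Its log2 fold change was −4.79 (SE 0.72, adjusted p = 0.0159, edgeR quasi-likelihood test). The epithelial markers Krt8, Krt18, Krt19, Epcam and Cdh1 summed to between 2774 and 6957 CPM in KPF and between 500.2 and 1305 CPM in KPYYF libraries, without overlap, and 2 of the 5 passed adjustment. Some libraries stood apart in markers of other cells. Acinar markers reached 20285 CPM in KPF 4504s and 5969 CPM in KPYYF 4449, and immune markers 9056 CPM in KPF 4601. Xist, used as a check on sex, exceeded 1000 counts in all 3 KPYYF but in 3 of the 6 KPF libraries. The others had 71 to 159 counts, so by this measure sex was not balanced between the groups. The 3 KPF libraries were 4435, 4504h and 4504s, of which the last 2 share a mouse number. In such bulk samples, fewer cells of a type and less RNA per cell cannot be told apart.

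Jag1, Hes6 and Heyl had lower and Notch3 higher levels in KPYYF cells, and these were the members past the cutoff of the study's methods, a p under 0.05, taken here as unadjusted, with a change of more than 2-fold. Of the 9 members tested, 3 passed it as lower, where 9.2% of all genes tested did, and 1 as higher, where 4.2% did. With Benjamini-Hochberg adjustment over all genes, no member passed in edgeR in either direction, where 0.794% of genes passed as lower and 0.305% as higher. By the Wald test of DESeq2, the tool of the study, Heyl (adjusted p = 0.0012), Jag1 (0.0128) and Hes6 (0.0472) passed as lower, where 6.58% of all genes did, and 0 as higher, where 1.91% did. By limma-voom none passed. The levels of Heyl were the only ones that did not overlap between groups. That is 1 member lower and 0 higher, where 5.18% of all genes lay wholly lower and 3.92% wholly higher. The median log2 fold change of the 9 was −0.22, beside −0.07 for all genes tested.

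**Figure D1:**
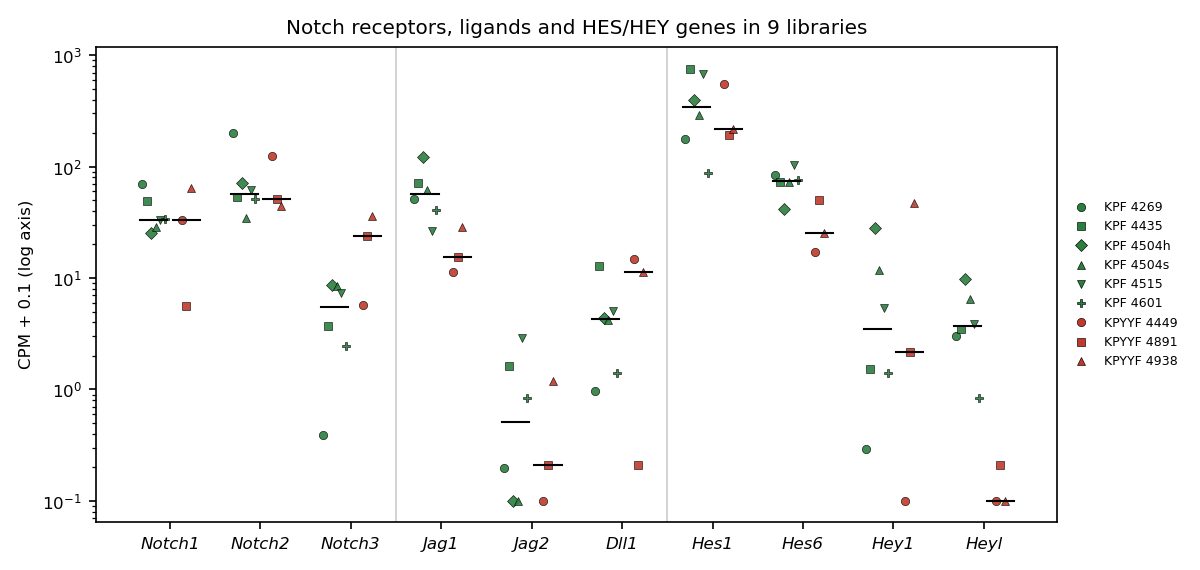
Level of each of the 10 genes in every library, as normalized CPM with 0.1 added on a log axis, KPF in green, KPYYF in red, with a bar at each group's median. Grey lines part receptors, ligands and HES/HEY genes. All KPYYF points of Heyl lie under all KPF points, and those of Jag1 and Hes6 overlap KPF in part.

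**Figure D2:**
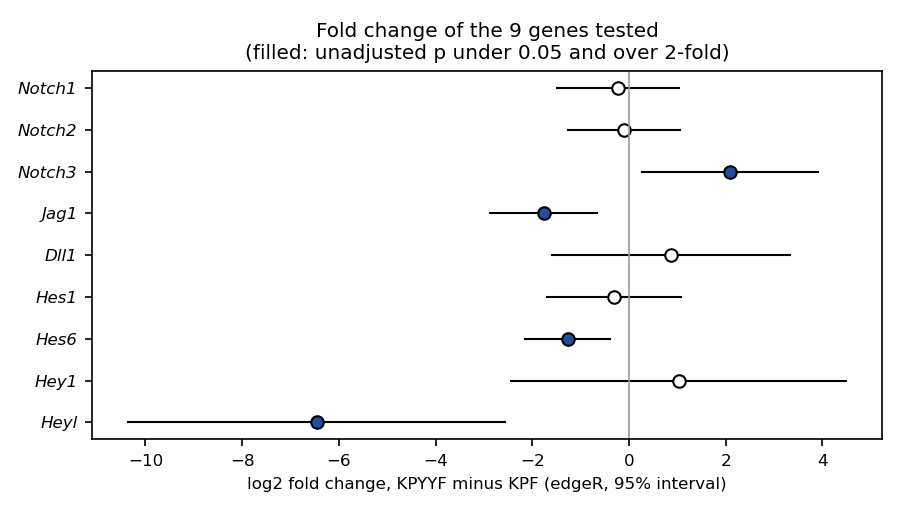
Log2 fold change, KPYYF minus KPF, of the 9 genes tested, with lines for the 95% interval of the edgeR fit. The intervals of Notch3, Jag1, Hes6 and Heyl, drawn filled, leave out 0, and those of Notch1, Notch2, Dll1, Hes1 and Hey1 include it.

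The promoters of 3 of these 4 genes are given for context from RefSeq (build GRCm38.p6), from 250 bases before to 50 bases after the transcription start, 5′ to 3′ on the strand of the gene. Jag1 covers chr2:137116471-137116770, Hes6 chr1:91413989-91414288 and Notch3 chr17:32166841-32167140, each on the minus strand. For Hes6, which has 2 windows, the one at the start of the annotated gene is shown. Capitals mark a match on either strand to CACGCG, a site bound by HES proteins, TGGGAA, the core of the Rbpj site, or GGAATG, the core of the site of TEAD factors, the DNA-binding partners of Yap. The last 2 motifs can overlap by their shared GGAA.
Jag1: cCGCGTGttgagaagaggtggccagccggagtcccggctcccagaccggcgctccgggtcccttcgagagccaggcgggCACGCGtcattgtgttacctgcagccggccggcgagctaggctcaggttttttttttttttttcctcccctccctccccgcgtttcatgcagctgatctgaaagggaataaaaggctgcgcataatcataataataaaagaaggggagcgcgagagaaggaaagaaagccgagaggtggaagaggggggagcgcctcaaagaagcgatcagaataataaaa
Hes6: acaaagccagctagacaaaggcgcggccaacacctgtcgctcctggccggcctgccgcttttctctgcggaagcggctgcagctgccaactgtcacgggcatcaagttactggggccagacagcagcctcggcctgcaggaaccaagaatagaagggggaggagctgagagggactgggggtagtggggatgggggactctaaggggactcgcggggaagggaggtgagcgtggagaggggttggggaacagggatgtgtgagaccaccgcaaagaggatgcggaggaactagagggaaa
Notch3: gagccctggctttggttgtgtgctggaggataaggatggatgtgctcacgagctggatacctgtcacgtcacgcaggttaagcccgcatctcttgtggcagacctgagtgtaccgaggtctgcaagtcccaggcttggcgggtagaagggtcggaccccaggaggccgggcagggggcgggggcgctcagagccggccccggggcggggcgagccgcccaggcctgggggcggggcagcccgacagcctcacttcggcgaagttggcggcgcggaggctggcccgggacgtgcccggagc
Jag1 held 2 matches, both to CACGCG, and Hes6 and Notch3 held none. The table had 9 windows for 7 of the 10 genes. Hes1, Hey1 and Heyl were not matched. CACGCG was found in 4 of the 9 windows (Jag1, Jag2, Notch2 and 1 of 2 for Dll1) and in 9.27% of 32851 promoters, and TGGGAA in 0 of 9 and 25.6%. GGAATG was found only in the window of Notch1, with 2 matches, and in 14.7% of all promoters. These matches describe the letters in the window and say nothing of binding.

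Among Notch1, Notch2 and Notch3, the last (ENSMUSG00000038146, GRCm38 chromosome 17, 32120820 to 32166852), a receptor best known from pericytes and vascular smooth muscle, had the largest log2 fold change. The level of Notch3 was 0.292 CPM (3 counts) in KPF 4269, 3.59 in 4435, 8.59 in 4504h, 8.43 in 4504s, 7.19 in 4515 and 2.33 CPM in 4601. In KPYYF cells it was 5.58 CPM in 4449, 23.7 in 4891 and 35.6 CPM in 4938. Libraries 4891 and 4938 lay above every KPF library, and 4449 lay among them. Pdgfra, a fibroblast marker named after its values were seen, also lay above every KPF library in 4891 and 4938. It lay among them in 4449, but was highest in 4891. It was at 24.3, 285 and 116 CPM in KPYYF 4449, 4891 and 4938 and at most 42 CPM in KPF libraries. Of the 7 fibroblast markers listed, all tested, 5 were higher by sign and 0 passed adjustment. By the cutoff of the study 2 passed as higher (Pdgfra and Dpt, log2 fold changes 2.90 and 2.04) and 0 as lower, where 4.2 and 9.2% of all genes did. Col1a1 and Fap were lower by sign (log2 fold changes −1.46 and −1.62, adjusted p = 0.482 and 0.737 in edgeR). The 7 markers summed to 309.9 to 3826 CPM in KPF and 1008 to 2467 CPM in KPYYF libraries, and the part of such cells in Notch3 was not tested. The means of Notch3 were 5.07 ± 3.48 CPM (SD, n = 6) and 21.6 ± 15.1 CPM (SD, n = 3), a log2 fold change of 2.09 (SE 0.84, 95% interval 0.27 to 3.91, p = 0.0273, adjusted p = 0.234 in edgeR), and an exact two-sided permutation test over libraries gave p = 0.119, where the smallest possible is 0.0119. Without KPYYF 4938 the log2 fold change was 1.53, and without KPYYF 4891 it was 2.02, each with an unadjusted p no longer under 0.05 in edgeR (adjusted p = 0.548 and 0.381). The same held over the libraries with more than 1000 Xist counts, at 1.68 (adjusted p = 0.424 in edgeR). A transcript on the opposite strand, Gm17276, overlaps Notch3, and the strand setting of the counting is not given in the sources used here.

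Notch1 and Notch2, the receptors best known from epithelial progenitors, differed by less than the spread between libraries. Notch1 (ENSMUSG00000026923, chromosome 2, 26457903 to 26516663) ran from 25.2 to 69.7 CPM over the KPF libraries, with a median of 33.2, and was at 33.4, 5.47 and 63.6 CPM in KPYYF 4449, 4891 and 4938. The KPYYF libraries thus held the lowest value of all 9 and the next to highest one. The log2 fold change of Notch1 was −0.22 (SE 0.59, 95% interval −1.49 to 1.04, adjusted p = 0.904 in edgeR), so a 2-fold difference either way lay within the interval. Genes on the opposite strand, 0610009E02Rik and Gm13568, overlap Notch1 as well.

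Notch2 (ENSMUSG00000027878, chromosome 3, 98013527 to 98150361) ran from 34.5 to 199 CPM over the KPF libraries and was at 124, 51.4 and 43.9 CPM in KPYYF 4449, 4891 and 4938. Within KPF, 4269 stood apart at 199 CPM and the next library was at 71.4 CPM. The log2 fold change was −0.11 (SE 0.53, 95% interval −1.26 to 1.05, adjusted p = 0.955 in edgeR) and turned positive, at 0.42, without KPF 4269. Neither the sign for Notch1 nor that for Notch2 was stable when single libraries were left out.

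Among the receptor reads, the share of Notch3 was above the KPF range in 2 of the 3 KPYYF libraries. Notch3 held 0.108% of the Notch1, Notch2 and Notch3 reads in KPF 4269, with a 95% exact binomial interval of 0.0224 to 0.317%, and up to 11.8% (9.4 to 14.6%) in KPF 4504s. In KPYYF it held 3.43% (2.53 to 4.54%) in 4449, 24.9% (22.6 to 27.3%) in 4938 and 29.4% (26.2 to 32.9%) in 4891. The share of Notch1 was lowest of all libraries in KPYYF 4891, at 6.78% (5.08 to 8.85%), and 44.4% (41.7 to 47.2%) in KPYYF 4938, near the highest KPF share of 46.3%. The KPYYF libraries with raised Notch3 shares thus had unlike Notch1 shares. Such intervals cover counting error only.

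**Figure D3:**
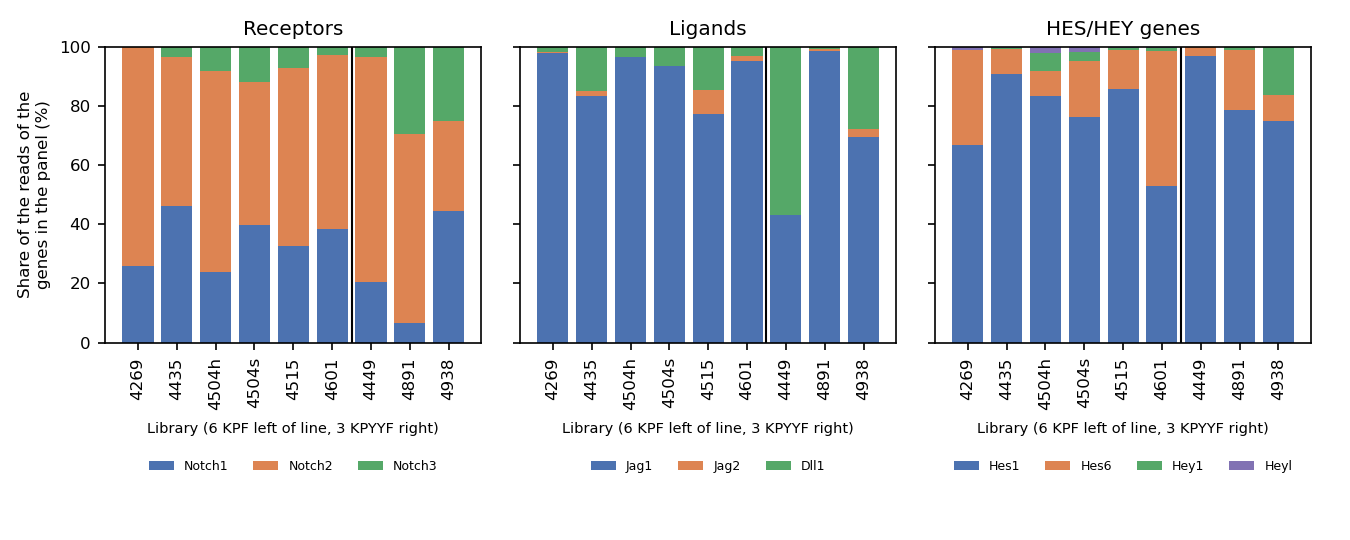
Share of reads (%, from 0 to 100) that each gene held among the receptors, the ligands and the HES/HEY genes, 1 bar per library, with the 6 KPF libraries left and the 3 KPYYF libraries right of the line. Notch3 makes up 24.9 and 29.4% of the receptor reads in KPYYF 4938 and 4891, and Dll1 makes up 56.7% of the ligand reads in KPYYF 4449.

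Jag1 (ENSMUSG00000027276, chromosome 2, 137081456 to 137116644), whose product is a Jagged ligand of the Notch receptors, had the lower levels in KPYYF cells. In KPF cells it was at 51.1 CPM in 4269, 71.4 in 4435, 123 in 4504h, 61.2 in 4504s, 26.2 in 4515 and 40.8 CPM in 4601. In KPYYF cells it was at 11.2 CPM in 4449, 15.3 in 4891 and 28.4 CPM in 4938. The groups overlapped by 1 library on each side, KPF 4515 lying just under KPYYF 4938, and the KPF library 4504h was above all the others. The means were 62.2 ± 33.5 CPM (SD, n = 6) and 18.3 ± 8.99 CPM (SD, n = 3). The log2 fold change was −1.77 (SE 0.51, 95% interval −2.87 to −0.66, p = 0.00419, adjusted p = 0.116 in edgeR), and the exact permutation test gave p = 0.0238. In edgeR, without each library in turn it ran from −2.23 to −1.46, each with an unadjusted p under 0.05. The summed epithelial markers were lower in the same libraries, as they were beside Hes6 and Heyl, and their part in these results was not tested.

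Dll1 and Jag2 had low counts. Dll1 (ENSMUSG00000014773, chromosome 17, 15367354 to 15376872), a Delta ligand needed in the developing pancreas, had 9, 125, 42, 36, 45 and 9 counts in KPF 4269, 4435, 4504h, 4504s, 4515 and 4601. The counts of Dll1 in KPYYF 4449, 4891 and 4938 were 123, 1 and 103. So 2 KPYYF libraries lay near the highest KPF library and 1 had almost none. The means were 4.73 ± 4.30 CPM (SD, n = 6) and 8.67 ± 7.59 CPM (SD, n = 3), with a log2 fold change of 0.87 (SE 1.14, 95% interval −1.59 to 3.33, adjusted p = 0.777 in edgeR) that was −0.73 by limma-voom. A gene on the opposite strand, A930024N18Rik, overlaps Dll1.

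Jag2 (ENSMUSG00000002799, chromosome 12, 112907819 to 112929776), the other Jagged ligand, had 57 counts in all. They were 1, 15, 0, 0, 25 and 5 in the KPF libraries in the same order and 0, 1 and 10 in KPYYF 4449, 4891 and 4938. A count of 0 allows up to 3 counts, or 0.292 to 0.437 CPM by library. The groups overlapped (p = 0.702, exact permutation test on log2 CPM). Pooled, 46 KPF and 11 KPYYF counts of Jag2 gave a rate ratio of 2.05, with an exact Poisson 95% interval of 1.05 to 4.38 that covers counting error only. Jag1 held 77.2 to 98.1% of the reads of the 3 ligands in KPF libraries. In KPYYF it held 43.3% (36.6 to 50.2%) in 4449, 69.6% (64.7 to 74.3%) in 4938 and 98.6% (95 to 99.8%) in 4891. Dll1 held most of the remainder, with 56.7% (49.8 to 63.4%) in 4449 and 27.7% (23.2 to 32.5%) in 4938, above its KPF range of 1.68 to 14.9%.

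Hes1 (ENSMUSG00000022528, chromosome 16, 30064384 to 30067796), the most widely used Notch target, did not differ beyond its spread over all 9 libraries. It was at 177, 759, 396, 289, 682 and 87.6 CPM in KPF 4269, 4435, 4504h, 4504s, 4515 and 4601, and at 555, 193 and 216 CPM in KPYYF 4449, 4891 and 4938. All KPYYF values lay inside the KPF range, which spanned 8.66-fold. The log2 fold change was −0.31 (SE 0.63, 95% interval −1.69 to 1.07, adjusted p = 0.869 in edgeR). It was −0.96 (adjusted p = 0.552 in edgeR) without KPYYF 4449. Without the 3 libraries of over 5000 CPM of acinar or immune markers, KPF 4504s and 4601 and KPYYF 4449, it was −1.28 (adjusted p = 0.272 in edgeR), with an unadjusted p under 0.05, and Hes1 then passed the cutoff of the study. Of 7 genes listed as repressed by Hes1, 5 had too few counts to test, with 0 to 61 counts over all libraries. Of the other 2, Cdkn1c, a cell cycle inhibitor, was at 0.92 to 32.1 CPM in KPF cells and 13.9 to 128 CPM in KPYYF cells (log2 fold change 2.12, SE 0.85, adjusted p = 0.243 in edgeR), and Cdkn1b gave a log2 fold change of 0.25 (adjusted p = 0.879 in edgeR).

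Hes6 (ENSMUSG00000067071, chromosome 1, 91411483 to 91414038), a relative of Hes1 whose product inhibits Hes1, was lower in KPYYF cells. It was at 84.4 CPM in KPF 4269, 72.1 in 4435, 41.2 in 4504h, 72 in 4504s, 103 in 4515 and 75.4 CPM in 4601, and at 17.1, 50.5 and 25.4 CPM in KPYYF 4449, 4891 and 4938. Only KPF 4504h and KPYYF 4891 overlapped, and the coefficient of variation of Hes6 among KPF libraries, 26.9%, was the lowest of the 9 members tested. The log2 fold change was −1.27 (SE 0.41, 95% interval −2.15 to −0.38, p = 0.00835, adjusted p = 0.148 in edgeR), with p = 0.0238 in the exact permutation test. Without KPYYF 4449 it was −0.98 (adjusted p = 0.264 in edgeR), less than 2-fold and so not past the cutoff of the study. It was −0.97 (adjusted p = 0.462 in edgeR), with an unadjusted p no longer under 0.05, over the libraries with more than 1000 Xist counts. Without the 3 libraries of over 5000 CPM of acinar or immune markers it was −0.95 (adjusted p = 0.363 in edgeR), again with an unadjusted p over 0.05. Neuroendocrine cells are known to express Hes6, and their 7 markers listed summed to 8.09 to 52.9 CPM in KPF and 6.78 to 36.8 CPM in KPYYF libraries, and 4 of the 6 tested were lower by sign. The other 2 were higher by sign, with log2 fold changes up to 1.94. By the cutoff of the study 2 of the 6 passed as lower and 0 as higher, where 9.2 and 4.2% of all genes did. Those 2 were Ins1 and Gcg (log2 fold changes −5.04 and −5.42), named after their values were seen. Of the 6 tested, 0 passed adjustment, and the median log2 fold change was −2.72. The part of neuroendocrine cells in the level of Hes6 was not tested.

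Heyl (ENSMUSG00000032744, chromosome 4, 123233556 to 123249875), a HEY family target of Notch, was found almost only in KPF cells. It had 30, 33, 94, 56, 34 and 5 counts in KPF 4269, 4435, 4504h, 4504s, 4515 and 4601, and 0, 1 and 0 counts in KPYYF 4449, 4891 and 4938. Every KPF library was above every KPYYF library, even though KPF levels were themselves low, at 4.46 ± 3.10 CPM (SD, n = 6). Pooled, 252 KPF and 1 KPYYF counts gave a rate ratio of 123, with an exact Poisson 95% interval of 22.0 to 4894 that covers counting error only, not the spread between libraries. The fitted log2 fold change was −6.46 (SE 1.81, 95% interval −10.36 to −2.56, p = 0.00332, adjusted p = 0.107 in edgeR) and depends on the handling of the zeros, and the exact permutation test gave its smallest possible p, 0.0119. In edgeR, the unadjusted p stayed under 0.05 without each library in turn (log2 fold change −8.33 to −6.01). Markers of Schwann cells were also wholly lower in KPYYF libraries, with 18.1 to 97.0 CPM summed over 4 genes in KPF and 0.547 to 7.36 CPM in KPYYF. Most of it was S100b, which passed adjustment as lower, and the defining marker Sox10 was at 0 in all 9 libraries. The part of such cells was not tested.

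Hey1 (ENSMUSG00000040289, chromosome 3, 8663359 to 8667256), the other HEY target, varied widely within both groups. It had 2, 14, 276, 102, 48 and 9 counts in the same KPF libraries and 0, 19 and 430 counts in KPYYF 4449, 4891 and 4938. The highest and the lowest library were thus both KPYYF. The log2 fold change was 1.03 (SE 1.57, 95% interval −2.43 to 4.49, adjusted p = 0.816 in edgeR) and −2.93 without KPYYF 4938. Of the reads of Hes1, Hes6, Hey1 and Heyl, Hey1 held 16.4% (15 to 17.8%) in KPYYF 4938 and 0 to 5.94% in the other 8 libraries.

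Heyl, Notch3 and Notch4 are known from vessel walls, and the vessel markers moved in unlike ways. The 10 endothelial markers listed summed to between 24.1 and 112 CPM in KPF and between 33.2 and 50.7 CPM in KPYYF libraries, and 0 of the 7 tested passed adjustment. None of the 10 was at 0 in all libraries, but Kdr, the VEGF receptor, had 71 to 200 counts per KPF library and 0, 40 and 1 counts in KPYYF 4449, 4891 and 4938 (adjusted p = 0.18 in edgeR). The 9 mural markers listed summed to between 43.7 and 361 CPM in KPF and between 90.1 and 264 CPM in KPYYF libraries. Of these 9, only Cspg4, a pericyte proteoglycan, passed adjustment, rising from 2.63 ± 1.94 CPM (SD, n = 6) to 44.9 ± 51.1 CPM (SD, n = 3) with a log2 fold change of 4.08 (SE 0.80, adjusted p = 0.0351 in edgeR). Rgs5, a pericyte marker, ran from 19.9 to 119 CPM in KPF and from 3.09 to 11.5 CPM in KPYYF libraries (adjusted p = 0.113 in edgeR). Pdgfrb, the PDGF receptor of mural cells and fibroblasts, was at 4.47 to 106 and 36.9 to 81.9 CPM (adjusted p = 0.666 in edgeR). By sign, 6 of the 9 mural markers and 5 of the 7 endothelial markers tested were lower, and 3 and 2 were higher. Acta2, of smooth muscle, had a log2 fold change of −2.65 and passed the cutoff of the study as lower with Rgs5, Abcc9, of pericytes, had −2.86 (adjusted p = 0.394 in edgeR), and the endothelial Egfl7 and Cdh5 had 0.22 and 0.06 (adjusted p = 0.911 and 0.99 in edgeR). Kdr and Rgs5 lay wholly lower and Cspg4 wholly higher in KPYYF cells, where 5.18 and 3.92% of all genes tested did. All 3 were named after their values were seen, and the part of vessel cells in the levels of Heyl and Notch3 was not tested.

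**Figure D4:**
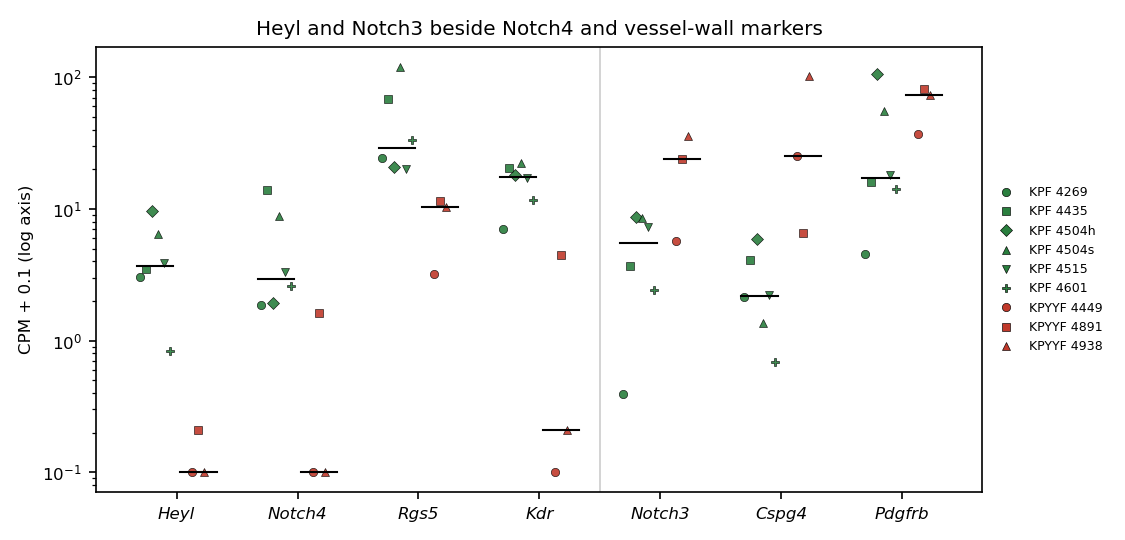
Level of Heyl, Notch4, Rgs5 and Kdr (left) and of Notch3, Cspg4 and Pdgfrb (right) in each library, as CPM with 0.1 added on a log axis, KPF in green, KPYYF in red, with a bar at each group's median. The left 4 genes do not overlap between the groups, and on the right only Cspg4 does not. The markers Rgs5, Kdr, Cspg4 and Pdgfrb were picked after their values were seen. Of the 7 endothelial and 9 mural markers tested, 1 and 1 lay wholly lower, and 0 and 1 wholly higher. Of all genes tested, 5.18% lay wholly lower and 3.92% wholly higher.

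Among the remaining pathway genes, few stood out. Of 62 further genes listed by role, 54 were tested, and none passed adjustment in edgeR over all libraries. By DESeq2, 1 of the 54 passed as higher (Dlk1) and 1 as lower (Dtx4), where 1.91 and 6.58% of all genes did. By the cutoff of the study, 1 of the 54 passed as higher and 3 as lower, where 4.2 and 9.2% of all genes did, and their median log2 fold change was −0.18. Of 8 genes of the nuclear complex, 9 tested of the cleavage steps, 6 of ligand endocytosis and 10 corepressors, 0 passed that cutoff in either direction. Rbpj, the DNA-binding partner of all Notch receptors, was at 82.6 ± 33.2 CPM (SD, n = 6) in KPF and 89.9 ± 54.5 CPM (SD, n = 3) in KPYYF cells (log2 fold change 0.12, SE 0.40, adjusted p = 0.927 in edgeR).

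Notch4, the remaining receptor, had its levels wholly lower in KPYYF cells, at 1.75 to 13.9 CPM in KPF and 0, 1.53 and 0 CPM in KPYYF 4449, 4891 and 4938 (log2 fold change −3.35, SE 1.70, adjusted p = 0.362 in edgeR). Of the 54, 1 thus lay wholly lower and 0 wholly higher, where 5.18 and 3.92% of all genes tested did. The edgeR interval of Notch4, −7.01 to 0.32, included 0. Of the other ligands, Dll4, the endothelial Delta ligand, was at 0 to 13.0 CPM in KPF cells and 0 to 8.0 CPM in KPYYF cells (log2 fold change −0.22, adjusted p = 0.974 in edgeR), and Dll3 had 2 counts in all. Dlk1, a membrane protein without the receptor-activating domain of the Delta ligands, was at 672 and 1567 CPM in KPYYF 4449 and 4891 but at 1.42 CPM in 4938, under all KPF libraries (9.30 to 51.0 CPM). This was the gene past the cutoff as higher (log2 fold change 5.09, SE 1.31, adjusted p = 0.115 in edgeR). Without KPYYF 4938 the log2 fold change of Dlk1 was 5.68 and passed adjustment (adjusted p = 0.0201 in edgeR). By limma-voom over all libraries it was 1.78 (adjusted p = 0.655).

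The 3 past the cutoff as lower were Lfng, Eogt and Dtx4. The unadjusted p was under 0.05 in 16 of 18 alternative settings for Dtx4, in 11 for Lfng and in 7 for Eogt. For Lfng, DESeq2 gave no p value. Lfng, a Fringe glycosyltransferase that favors signaling by Delta over Jagged ligands, was at 10.7 to 92.1 CPM in KPF cells and 3.68 to 12.7 CPM in KPYYF cells (log2 fold change −1.82, SE 0.79, adjusted p = 0.274 in edgeR). Its highest level was in KPF 4601, the library with 9056 CPM of immune markers, and without it the log2 fold change was −0.88 (adjusted p = 0.554 in edgeR). Eogt, which adds sugars to Notch receptors, had a log2 fold change of −1.10 (SE 0.49, adjusted p = 0.286 in edgeR). The other Fringe genes, Mfng and Rfng, were at −0.17 and 0.64 on the log2 scale (adjusted p = 0.963 and 0.632 in edgeR). Dtx4, a Deltex ubiquitin ligase, was at 58.7 to 199 CPM in KPF cells and 44.9 to 64.6 CPM in KPYYF cells (log2 fold change −1.39, SE 0.42, adjusted p = 0.127 in edgeR). Of the inhibitors, Numb had a log2 fold change of −0.59 and Nrarp, itself a Notch target, of −0.61 (adjusted p = 0.73 and 0.794 in edgeR). Hes5 and Hey2 had 2 counts and 1 count over all 9 libraries.

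**Figure D5:**
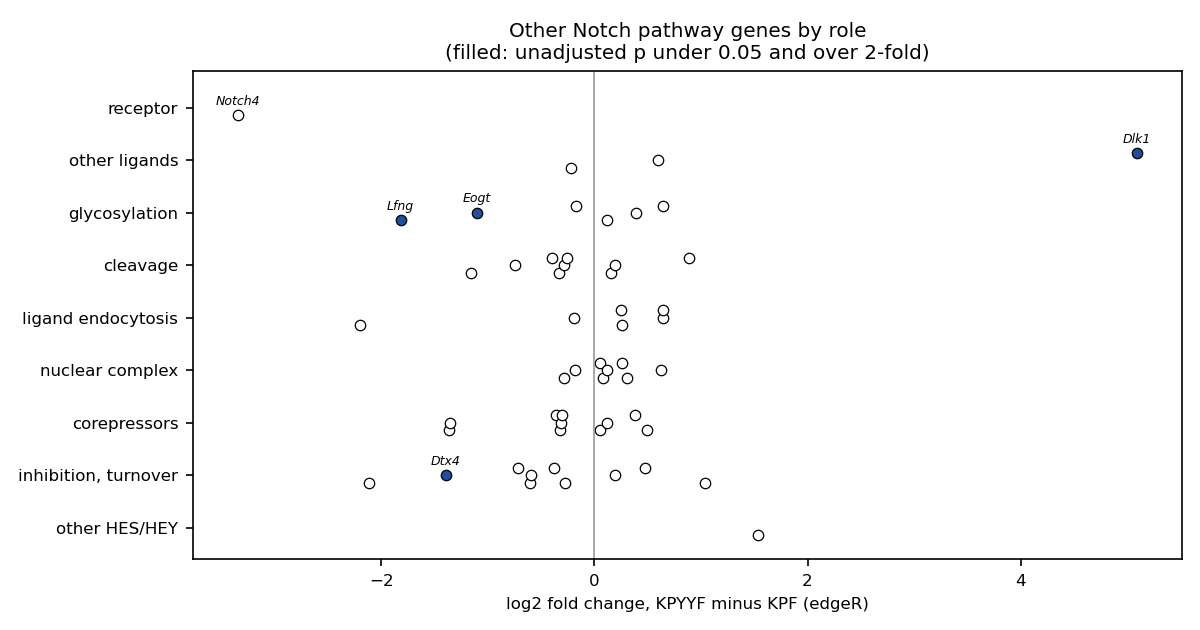
Log2 fold change, KPYYF minus KPF, of the 54 other pathway genes tested, 1 point per gene in a row for its role. Dlk1, at 5.09, and Lfng, Eogt and Dtx4, at −1.82, −1.10 and −1.39, are filled as past the cutoff of the study, and Notch4, at −3.35, is not.

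Single libraries differed in which genes of the pathway they held. KPF 4504h was the highest KPF library for 4 of the 10 members, Notch3, Jag1, Hey1 and Heyl. Against 4504s, from a mouse of the same number, 4504h had 2.43 times the Hey1, 2.07 times the Notch2 and 2.01 times the Jag1 level, but 0.572 times that of Hes6, with Notch3 (1.02 times) and Dll1 (1.05 times) nearly the same. KPYYF 4938 was the highest KPYYF library for 5 of the 10, Notch1, Notch3, Jag1, Jag2 and Hey1, and 4449 for Notch2, Dll1 and Hes1. KPYYF 4891 held the lowest KPYYF levels of Notch1, Dll1 and Hes1 beside a Notch3 level of 23.7 CPM. Heyl had at most 1 count in each KPYYF library, also in 4938, which held the highest Hey1 level of all 9.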

How the data were processed

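RNA of FACS-sorted GFP+ or Tm+ tumor cells was made into Lexogen QuantSeq 3′ Forward libraries. As deposited by the authors, the 9 files hold raw counts per Ensembl gene, 47643 in each, without normalization. The submitters' processing notes name STAR, HTSeq and build mm10. Versions, annotation and strand setting are not given in the sources used here, and the study's methods speak of hybridization to BeadChips, of removing genes with few summed reads and of DESeq2. Identifiers were matched to symbols and GRCm38 positions in GENCODE release M21 (47224 matched).

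Groups were taken from the genotype label. Genes with at least 100 counts over the 9 libraries (14105) were TMM-normalized and compared with edgeR 4.0.16's quasi-likelihood test (robust, no covariates, R 4.3.3), with two-sided p values, adjusted by Benjamini-Hochberg over all 14105 (threshold 0.05). The common biological coefficient of variation was 0.825. CPM are TMM-normalized. Exact permutation tests on log2 CPM (prior count 2) used all 84 assignments of 6 and 3 libraries. Shares have exact binomial and pooled counts exact Poisson 95% intervals. The script was tested on simulated data.

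Named were all 10 members, 11 pathway genes fixed by name (Notch4, Dll3, Dll4, Rbpj, Lfng, Mfng, Rfng, Numb, Nrarp, Hes5 and Hey2), other listed pathway or Hes1-repressed genes with an unadjusted p under 0.05, Yap1 and Xist. Cdkn1b, Kdr, Rgs5, Cspg4, Pdgfrb, Acta2, Abcc9, Egfl7, Cdh5, Pdgfra, Dpt, Col1a1, Fap, Ins1 and Gcg were named after their values were seen. Members and lists were chosen with earlier results of these data known. Alternatives were DESeq2 1.42.0, limma-voom (limma 3.58.1) with sample quality weights, RLE and upper quartile factors, no filter, filterByExpr, log(2) in place of 1 as the log2 cutoff, 4504h and 4504s summed, only libraries with over 1000 Xist counts, and each library left out. Leaving out the libraries with more than 5000 CPM of acinar or immune markers (KPF 4504s and 4601, KPYYF 4449) was chosen after seeing the data. Some alleles and genes are not reported here. Figures used matplotlib 3.10.9.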

Additional observations from a re-analysis of the deposited data

Results flagged for a closer look

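Among the 6 KPF libraries, the highest or lowest value of each of the 10 genes was compared with its neighbor by Dixon's ratio of that gap to the whole range. Notch2 was flagged with 199 CPM in KPF 4269, where the next library had 71.4 CPM (gap ratio 0.776), and Dll1 with 12.8 CPM in KPF 4435, where the next had 4.98 CPM (gap ratio 0.656). Chance flags about 1 in 20 groups, and 2 of 10 were flagged here. Neither gene passed a test between the groups. Without KPF 4269, the log2 fold change of Notch2 was 0.42, and without KPF 4435, that of Dll1 was 1.47.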

How the results depend on the processing

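In 18 alternatives, Heyl (log2 fold change −8.33 to −5.59) and Jag1 (−2.23 to −1.46) kept their direction with an unadjusted p under 0.05 in all 18, Hes6 (−1.81 to −0.95) in 16, Notch3 (1.53 to 2.62) in 15 and Hes1 (−1.28 to −0.02) in 1. That was without the libraries of over 5000 CPM of acinar or immune markers, where Hes1 and not Hes6 was among the 3 members past the cutoff as lower. The DESeq2 Wald test put 3 members under an adjusted p of 0.05 as lower. No other alternative put any there. By limma-voom, Dll1 turned to −0.73 and Notch2 to 0.055. Over the libraries with more than 1000 Xist counts, Notch1 turned to 0.0095 and Notch2 to 0.46. There, 0 members passed the cutoff of the study as higher and 2 as lower, and 2 lay wholly lower. Of the other pathway genes, 2 passed as higher and 1 as lower in those libraries. With 4504h and 4504s summed, 2 members lay wholly lower. Without the libraries of over 5000 CPM of acinar or immune markers, 1 member lay wholly higher and 2 wholly lower, and 3 other pathway genes passed as higher. That number was 2 by limma-voom and with no low-count filter. Leaving out 1 library at a time, Notch1 ran from −1.04 to 0.28, Notch2 from −0.72 to 0.42 and Hey1 from −2.93 to 2.04. Members passing the cutoff as higher numbered 0 to 1 (0 without KPYYF 4891 or 4938). Those passing it as lower numbered 2 to 3 (2 without KPYYF 4449). Members wholly higher numbered 0 to 1 (1 without KPYYF 4449) and members wholly lower 1 to 2. Other pathway genes past the cutoff numbered 1 to 2 as higher and 1 to 3 as lower (1 without KPYYF 4938). The cause of these changes was not tested. For these reduced sets of libraries, shares of all genes past the cutoff or without overlap are not given. Groups of fewer libraries separate more easily, so these counts cannot be set against the 5.18 and 3.92% of the full set. Over all genes, 112 passed adjustment as lower and 43 as higher, against 928 and 269 by DESeq2, 39 and 44 by limma-voom, 219 and 88 with no filter, and 13 to 198 and 6 to 75 without single libraries. The median log2 fold change of all genes was −0.07, and −0.31 with no filter. The 3 KPYYF libraries and counts under 10 in some libraries for Notch3, Heyl, Hey1, Dll1 and Jag2 limit what could be detected.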
